A study of Mus musculus with 78 samples.

Results

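Solute carriers are membrane proteins that move small molecules across the plasma membrane or into organelles. The set described here holds the mouse protein-coding genes of 10 families whose symbols start with Slc1a, Slc3a, Slc6a, Slc7a, Slc22a, Slc25a, Slc36a, Slc38a, Slc39a or Slc43a, a rule that used no measured value. The annotation held 150 such genes, of which 120 were listed in at least 1 of the gene tables and 90 in both, out of 15218 genes in the 4-cell table, 15342 in the 8-cell table and 13604 in both. The name of amino acid and organic ion carriers covers only some of them, since the Slc39a genes carry zinc and other metals and most Slc25a genes carry nucleotides, phosphate, carboxylates, amino acids or cofactors across the inner mitochondrial membrane. One member, Slc7a6os, has the prefix only because it is a neighbour of Slc7a6 on the other strand, and it is not a carrier.

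The data were Smart-seq2 libraries of single blastomeres of mouse embryos from a cross of Brainbow-2.1 mice with mice that carry CAG-cre/Esr1*, a tamoxifen-inducible Cre recombinase under a ubiquitously active promoter. All embryos, at both stages, carried both transgenes. They were taken as 2-cell embryos at 46 hours post injection (hpi), received 4-hydroxytamoxifen in vitro for 2 hours and were grown in KSOM medium, so no untreated embryo and no embryo grown in the mother was compared. The gene tables held 24 blastomeres of 4-cell embryos and 26 of 8-cell embryos. These came from at most 9 4-cell and 4 8-cell embryos, so blastomeres of a stage share embryos. The column numbers equal those of the blastomeres whose lineage the paper resolved, 24 of 36 at the 4-cell and 26 of 31 at the 8-cell stage. The paper left some 4-cell embryos unresolved, so the 4-cell columns may come from fewer than 9. No column name gives an embryo or a lineage, and columns were not matched to the paper's blastomeres by order or depth. Each stage was therefore treated as 1 sample, and the stages were compared by their values alone. Values are given as lowest, median and highest over the blastomeres, in FPKM (fragments per kilobase of transcript, scaled to the fragments of the library).

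Preimplantation embryos take up amino acids both as nutrients and as osmolytes. Glycine, brought in by the sodium- and chloride-coupled carrier GLYT1 (Slc6a9), is known as an organic osmolyte of the mouse zygote and early cleavage stages, and taurine enters by Slc6a6. Cleavage embryos depend on mitochondrial oxidation, for which the SLC25 carriers exchange ADP for ATP and bring in phosphate and substrates, while SLC39 (ZIP) carriers raise cytosolic zinc.

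The number of carriers above 1 FPKM, the study's limit for an expressed gene, was 17 to 60 in a 4-cell blastomere with a median of 47, and 25 to 54 in an 8-cell blastomere with a median of 43. It moved with the number of all genes above 1 FPKM, which was 3009 to 8276 in the 4-cell blastomeres (median 7155) and 3548 to 8078 in the 8-cell blastomeres (median 6773). Over the 50 blastomeres, Pearson's r between both numbers was 0.9498 and Spearman's rho 0.932, a description in which each point shares its library and depth. The carriers made up 0.565% to 0.762% of the genes above 1 FPKM in a 4-cell blastomere and 0.548% to 0.781% in an 8-cell blastomere. The FPKM denominator was 6.87 M to 16.9 M fragments (M for mega) at the 4-cell stage and 2.33 M to 21.7 M at the 8-cell stage. At each stage 3 blastomeres had fewer than 5000 genes above 1 FPKM. Of 8 oocyte and blastomere markers, 3 to 8 were above 1 FPKM in a blastomere of either stage (median 6 and 5). Dppa3 was above it in all blastomeres, and 1 of the 8 was so in every 4-cell and 3 in every 8-cell blastomere. The 8 cumulus and granulosa markers summed to at most 3.06 FPKM in a 4-cell and 1.66 FPKM in an 8-cell blastomere. Of the latter, Cyp19a1 was above 1 FPKM in 2 4-cell blastomeres and Amh in 1 8-cell blastomere, Has2 in none, and 5 were in neither table. Of the 5 blood markers, only Alas2 was listed, above 1 FPKM in 3 8-cell blastomeres at up to 6.59 FPKM. Hsp90ab1, Eef2 and Rplp0, used by every cell, were above 1 FPKM in all. Gapdh was listed at 0 in 1 blastomere of each stage, so a value of 0 in a single blastomere can be a transcript missed by the library.

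The 4-cell libraries differed in the RNA of chromosome X, which bears on the carriers encoded there. In 4 4-cell blastomeres the X-linked genes held 0.0354% to 0.0629% of the summed FPKM, with 24 to 35 such genes above 1 FPKM, against 2.84% to 5.41% and 99 to 296 genes in the other 20, and 2.75% to 5.31% in the 8-cell blastomeres. These 4 were not poor in genes, with 6722 to 7912 above 1 FPKM in all. They are consecutive, blastomeres 13 to 16 in column order, and whether they share an embryo was not tested. Of the 8 annotated X-linked carriers 6 were in both tables, Slc6a8, Slc25a5, Slc25a14, Slc25a43, Slc25a53 and Slc7a3, and none of them was above 1 FPKM in any of the 4.

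**Figure D1:**
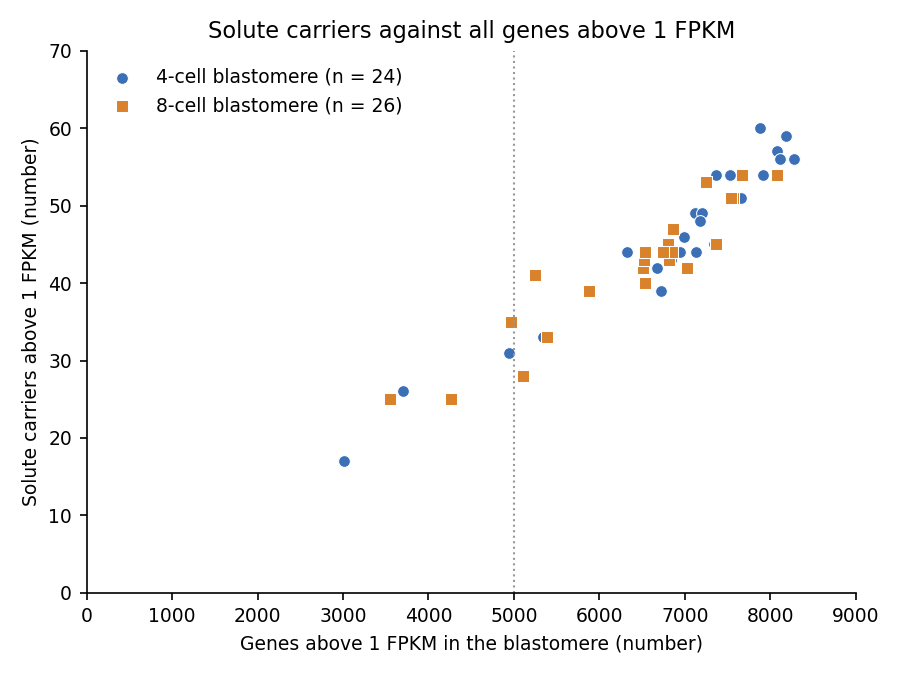
Number of solute carriers above 1 FPKM (vertical axis) against the number of all genes above 1 FPKM (horizontal axis), 1 point per blastomere, circles for the 24 4-cell and squares for the 26 8-cell blastomeres, with a dotted line at 5000 genes. The lowest point, a 4-cell blastomere, has 17 carriers among 3009 genes, and the highest has 60 carriers.

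Carriers were found in every blastomere about as often as other genes. Of the 104 carriers of the 4-cell table, 8 (7.69%) were above 1 FPKM in every 4-cell blastomere, against 8.88% of all genes listed there, and 11 of 106 (10.4%) were above it in every 8-cell blastomere, against 11.4% of the genes of that table. In 50% or more of the blastomeres the numbers were 48 (46.2%, against 45.2% of all genes) and 42 (39.6%, against 41.2%). No 4-cell blastomere was above 1 FPKM for 8 carriers (7.69%, against 10.8%), and no 8-cell blastomere for 12 (11.3%, against 15%). Without the blastomeres under 5000 genes, the number in every 4-cell blastomere was 15 instead of 8, against 17.9% of all genes.

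The carriers in every blastomere of both stages were 5, and they serve different substrates. Without the blastomeres under 5000 genes the number was 10, with Slc1a1, Slc25a3, Slc25a4, Slc39a4 and Slc7a6os added. Slc3a2, the heavy chain (4F2hc) that brings amino acid exchangers to the plasma membrane, ran from 8.81 to 270 FPKM with a median of 96.8 at the 4-cell stage and from 8.53 to 296 FPKM with a median of 132 at the 8-cell stage. Slc6a6, the taurine carrier, ran from 4.51 to 102.3 FPKM (median 44.1) and from 11.8 to 92.8 FPKM (median 46.3). Slc39a1, the zinc carrier ZIP1, ran from 29.4 to 160 FPKM (median 76.1) and from 39.9 to 310 FPKM (median 92.1). For these 3 carriers the ranges of both stages overlapped, and their highest values were within 2-fold of each other. The other 2 of the 5 are mitochondrial. Slc25a20, which exchanges acylcarnitine for carnitine, had medians of 99.3 and 105 FPKM and was never below 45.1 FPKM, and Slc25a44, a carrier of branched-chain amino acids, had medians of 64.4 and 46.7 FPKM and was never below 11.5 FPKM.

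The highest levels per length belonged to 3 carriers of oxidative phosphorylation. These were the ADP/ATP carriers Slc25a4 and Slc25a5, described further on with their copy Slc25a31, and the phosphate carrier Slc25a3, which had a median of 488 FPKM at the 4-cell stage and 612 FPKM at the 8-cell stage. By median FPKM, Slc25a4 ranked 213 of 15218 genes at the 4-cell stage and 52 of 15342 at the 8-cell stage. The SLC25 family as a whole, most but not all of it mitochondrial, held 58.1% to 86.7% of the carriers' summed FPKM in a 4-cell blastomere (median 69.99%) and 63.1% to 84.9% in an 8-cell blastomere (median 75.01%). Among the other carriers, Slc39a4, the zinc uptake carrier ZIP4, had medians of 127 and 96.3 FPKM, Slc25a17, which carries cofactors such as coenzyme A into peroxisomes, 94.0 and 71.5 FPKM, Slc1a1, the glutamate and aspartate carrier EAAC1, 75.3 and 54.8 FPKM, and Slc43a3, a purine nucleobase carrier, 51.0 and 60.8 FPKM.

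Between the stages, more carriers were lower than higher at the 8-cell stage by the median, and nearly as many higher as lower by the mean. The difference is the median log2(FPKM + 1) at the 8-cell stage minus that at the 4-cell stage, taken for genes with a median of at least 1 FPKM at a stage, and a gene is past the 2-fold limit where it is at least 1 in size. Of the 50 carriers compared, 7 (14%) were higher past the limit, against 9.87% of the 7131 genes compared, and 16 (32%) were lower, against 18.5% of them. The median difference was -0.30 for the carriers and -0.11 for all genes compared, with 22 carriers above 0 and 28 below. The ranges of the stages were separate for 0 of the 50 carriers, and for 0% of all genes compared. The scale understates the change of low genes, and the limit carries no p-value. With 1 blastomere left out at a time, 16 of the 23 calls held each time, and with the mean over blastomeres in place of the median 9 carriers were higher, against 8.33% of all genes compared, and 10 were lower, against 12.2%. Without the 4 4-cell blastomeres nearly without X-linked RNA, a choice made after seeing the values, the comparison gave 9 carriers higher (10.3% of all genes compared) and 12 lower (17.2%), with 19 of the 23 calls kept. The calls of Slc1a5 (-0.65), Slc25a51 (-0.88), Slc39a3 (-0.89) and Slc39a9 (-0.96), none of them X-linked, were lost. Slc25a16 and Slc25a39 passed the limit as higher there and not with all blastomeres.

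**Figure D2:**
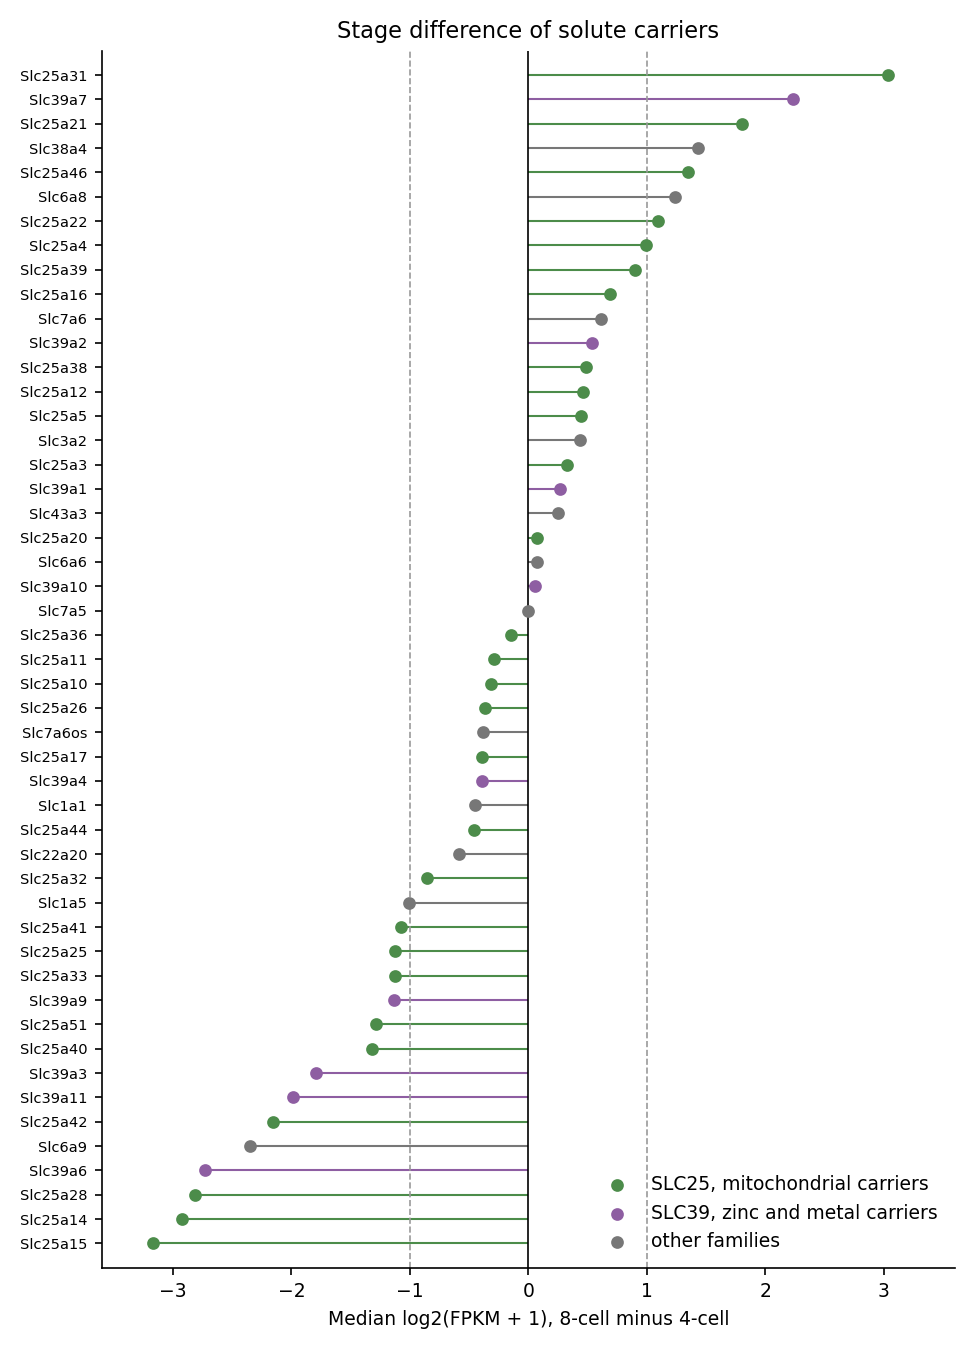
Difference of the median log2(FPKM + 1), 8-cell minus 4-cell, of 49 of the 50 carriers compared, sorted by size and coloured by family, with dashed lines at the 2-fold limit of 1 in either direction. The differences run from -3.17 for Slc25a15 to 3.04 for Slc25a31, and 15 of those drawn lie at or beyond the left line and 7 at or beyond the right one.

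The difference of a median went with the share of blastomeres that held the transcript. All 16 carriers called lower were above 1 FPKM in a smaller share of 8-cell than of 4-cell blastomeres, and all 7 called higher in a larger share. Among only the blastomeres above 1 FPKM, the median level was lower at the 8-cell stage for 11 of the 16 and higher for 6 of the 7. The exceptions were Slc25a14, Slc25a42, Slc39a3, Slc39a6 and Slc39a9 among those called lower, and Slc25a46 among those called higher. Share and median come from the same values and do not support each other.

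**Figure D3:**
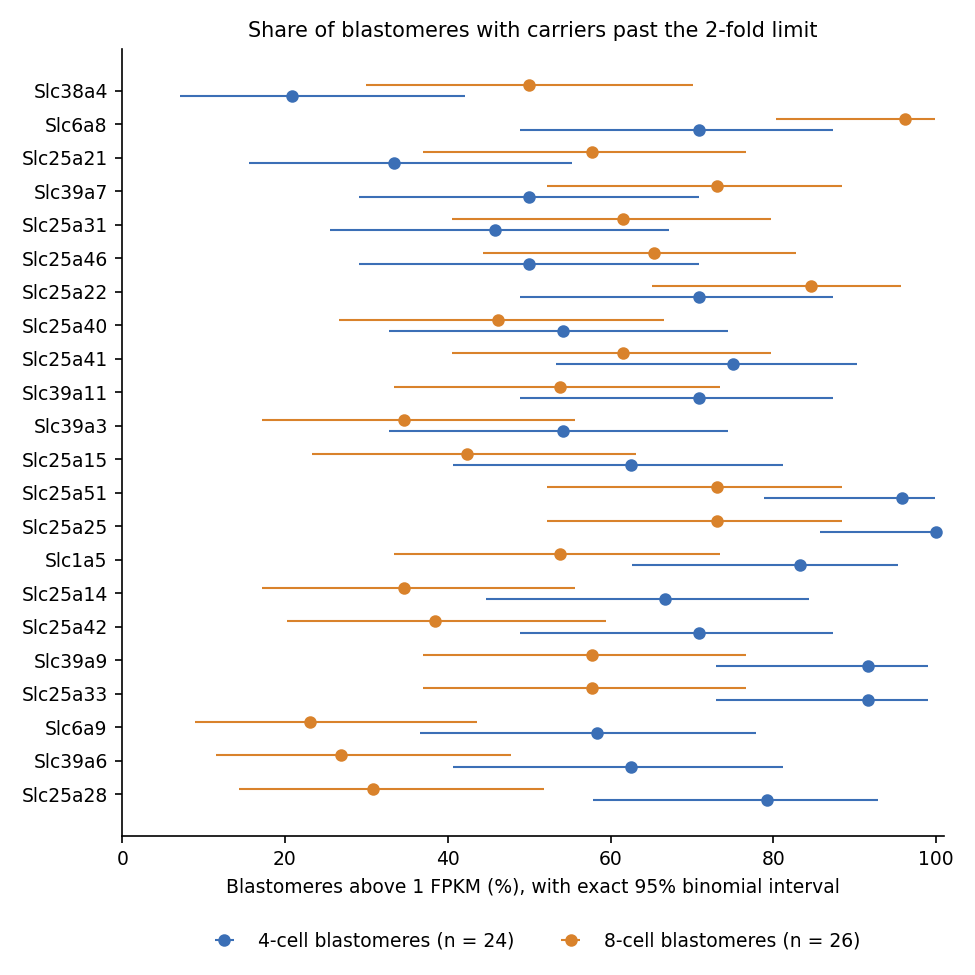
Share of blastomeres above 1 FPKM in percent (horizontal axis) for 22 of the 23 carriers past the 2-fold limit, at the 4-cell stage (n = 24) and the 8-cell stage (n = 26), with exact 95% binomial intervals that cover counting error only. Slc25a28 went from 79.2% to 30.8% and Slc38a4 from 20.8% to 50%.

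Of the 5 genes grouped here as glycine carriers, 2 were in both tables, and their differences had opposite signs. Slc6a9, GLYT1, was above 1 FPKM in 14 of 24 4-cell blastomeres (58.3%, exact 95% interval 36.6% to 77.9%) and in 6 of 26 8-cell blastomeres (23.1%, 8.97% to 43.6%). It ran from 0 to 23.5 FPKM with a median of 4.11 at the 4-cell stage, and from 0 to 9.38 FPKM with a median of 0 at the 8-cell stage, a difference of -2.35 on the log2(FPKM + 1) scale (-1.29 with the mean over blastomeres). These ranges overlapped, and 10 4-cell blastomeres were at or under 1 FPKM. Slc25a38, which brings glycine into mitochondria for haem synthesis, was above 1 FPKM in all 24 4-cell and in 24 of 26 8-cell blastomeres. It ran from 2.23 to 176 FPKM (median 38.1) and from 0 to 133 FPKM (median 53.6), a difference of 0.48. Every blastomere above 1 FPKM for Slc6a9 was also above it for Slc25a38, which at the 4-cell stage follows from Slc25a38 being above it in all 24. Of the other 3 of the group, Slc6a14, a broad amino acid carrier, was listed only at the 8-cell stage, in 6 blastomeres at up to 18.8 FPKM, and Slc6a5 (GLYT2) and Slc7a10 (Asc-1) were in neither table. Carriers of broader range that also accept glycine, such as Slc38a4, Slc38a2 and Slc36a1, are given with their families. Without the blastomeres under 5000 genes, Slc6a9 was above 1 FPKM in 13 of 21 and 6 of 23. Of its 3682 exon bases, 46 overlap Ccdc24 on the other strand, and the library kit does not mark strand.

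The window upstream of the first annotated start of Slc6a9 is shown for its rank by the median. Its difference was the lowest among the amino acid carriers of the plasma membrane by the median, while with the mean Slc1a5 was lower (-1.62). The window lies on the plus strand at chr4:117835008-117835257 of GRCm38.p6, from RefSeq, and ends at the base before the start. Capitals mark GC boxes, GGGCGG on either strand, here 61 and 51 bases before the start. Slc6a9 also has windows 2 and 3, upstream of later annotated starts, which held no GC box. Which start these embryos use was not tested.
Slc6a9: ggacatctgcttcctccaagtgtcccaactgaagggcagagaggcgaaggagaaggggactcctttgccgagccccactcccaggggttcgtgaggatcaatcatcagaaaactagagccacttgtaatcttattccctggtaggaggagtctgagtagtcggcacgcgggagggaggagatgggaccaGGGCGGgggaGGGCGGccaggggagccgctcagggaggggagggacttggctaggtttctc

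**Figure D4:**
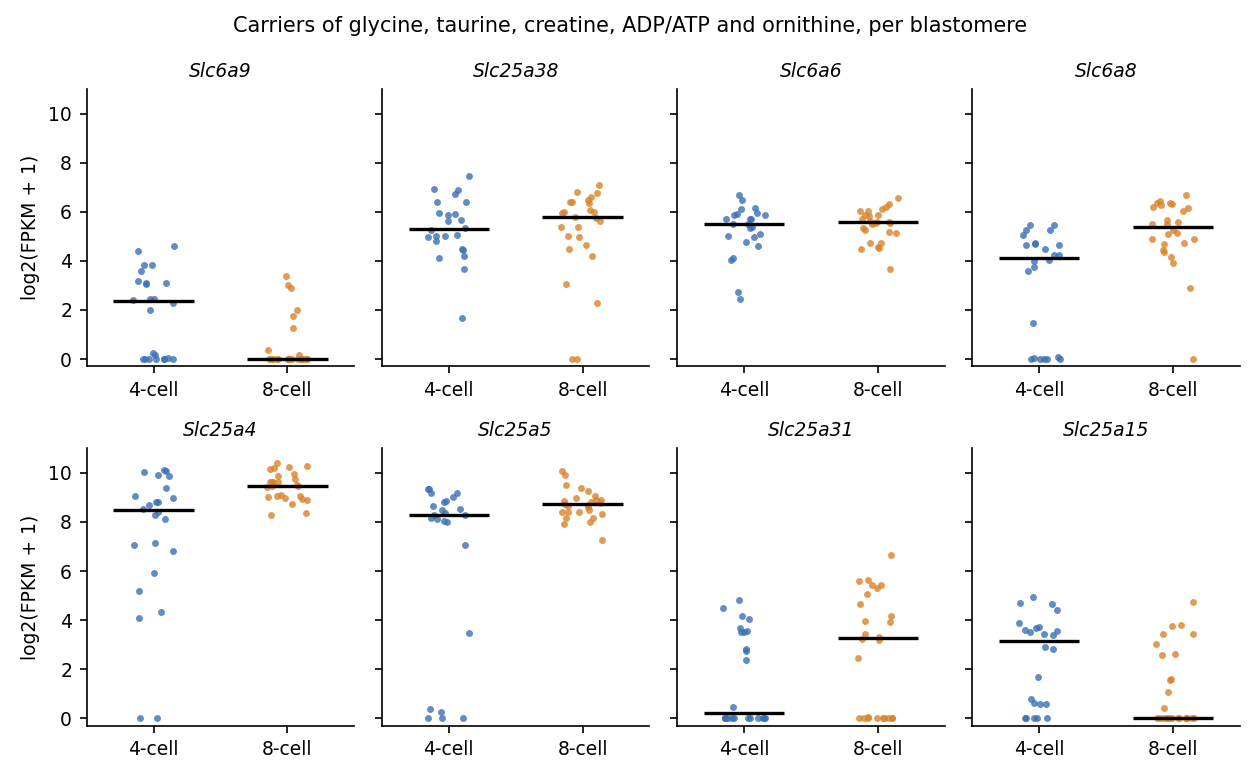
Values of 8 carriers per blastomere as log2(FPKM + 1), blue points for the 24 4-cell and orange points for the 26 8-cell blastomeres, spread sideways at random, with a black line at the median. The median of Slc6a9 is 0 at the 8-cell stage, Slc25a4 lies at 306 FPKM or more in all 8-cell blastomeres, and Slc25a31 has points at 0 at both stages.

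Of the other SLC6 carriers, only Slc6a8 passed the limit. Slc6a8, the creatine carrier, ran from 0 to 42.9 FPKM (median 16.6) at the 4-cell stage and from 0 to 102.4 FPKM (median 40.5) at the 8-cell stage, a difference of 1.24. It was above 1 FPKM in 17 of 24 blastomeres (70.8%, exact 95% interval 48.9% to 87.4%) and in 25 of 26 (96.2%, 80.4% to 99.9%). The 8-cell stage had 1 blastomere at 0 and the 4-cell stage 5, of which 4 are those nearly without X-linked RNA. Without these 4 it was above 1 FPKM in 17 of 20 4-cell blastomeres (85%), with a median of 19.6 FPKM and a difference of 1.01. Since Slc6a6 was in every blastomere, the carriers of creatine and of taurine were found together in 17 of 24 and 25 of 26 blastomeres. The remaining Slc6a genes in both tables had medians below 1 FPKM at both stages, among them the neutral amino acid carrier Slc6a15, above 1 FPKM in 7 and 8 blastomeres at up to 20.3 and 24.9 FPKM, and the serotonin carrier Slc6a4, above it in 6 and 2.

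Slc3a2 was found with a light chain of the amino acid exchangers in nearly every blastomere of both stages. Slc7a6 (y+LAT2), which exchanges cationic for neutral amino acids, ran from 0 to 59.7 FPKM (median 21.6) and from 0 to 92.4 FPKM (median 33.5), a difference of 0.61. Slc7a5 (LAT1), the light chain for large neutral amino acids, had a median of 3.47 FPKM at both stages and was above 1 FPKM in 17 of 24 and 16 of 26 blastomeres. Slc3a2 and at least 1 light chain were above 1 FPKM in 23 of 24 4-cell and all 26 8-cell blastomeres. Since Slc3a2 was above it in every blastomere, this count is that of the light chains alone. Both Slc7a5 and Slc7a6 were above it in 16 of 24 and 15 of 26. The light chain of the cystine exchanger, Slc7a11, was above 1 FPKM in 1 blastomere of each stage, and Slc7a7 (y+LAT1), of which 228 of 2676 exon bases overlap Oxa1l on the other strand, in 2 and 7. The cationic amino acid carriers that act alone had low medians. Slc7a3 reached 13.4 FPKM in a 4-cell and 36.2 FPKM in an 8-cell blastomere. Slc7a1 (CAT1) was above 1 FPKM in 1 of 24 and 0 of 26 blastomeres (exact 95% interval of the latter up to 13.2%) and Slc7a2 (CAT2) in 5 and 5, and none of the 5 such genes had a median of 1 FPKM.

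Of the sodium-coupled carriers of neutral and acidic amino acids, Slc1a1 was the most abundant per length and did not pass the limit. It ran from 0 to 136 FPKM at the 4-cell stage, where it was above 1 FPKM in 23 of 24 blastomeres, and from 2.43 to 152 FPKM at the 8-cell stage, where it was above 1 FPKM in all. Slc1a5 (ASCT2), a carrier of glutamine and other neutral amino acids, ran from 0 to 97.2 FPKM (median 10.4) and from 0 to 60.4 FPKM (median 4.68), above 1 FPKM in 20 of 24 and 14 of 26 blastomeres. Its difference of -1.01 was the closest to the limit among the carriers called, and it was past the limit in 25 of the 50 fits that left out 1 blastomere. Slc38a4 (SNAT4), an imprinted carrier of neutral amino acids, was above 1 FPKM in 5 of 24 4-cell blastomeres (20.8%, exact 95% interval 7.13% to 42.2%) and in 13 of 26 8-cell blastomeres (50%, 29.9% to 70.1%). It ran from 0 to 11.9 FPKM (median 0) and from 0 to 34.03 FPKM (median 2.46), a difference of 1.43. Without the 5 8-cell columns that have no name this difference was 0.37, and with 1 blastomere left out it ran from 0.37 to 2.49, and 13 of its 26 8-cell values were not above 1 FPKM. The other Slc38a genes in both tables stayed below a median of 1 FPKM, with Slc38a7 above 1 FPKM in 12 and 11 blastomeres, Slc38a6 in 11 and 10, and Slc38a2 (SNAT2) in 6 and 1. No Slc36a gene, the proton-coupled family, was above 1 FPKM in more than 3 blastomeres of a stage.

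Organic ion carriers of the SLC22 family were nearly all low or unlisted. Of the 25 annotated, 11 were in neither table and 5 in both, and only Slc22a20, an organic anion carrier, had a median of at least 1 FPKM. Its values lay between 0 and 48.0 FPKM (median 12.5) and between 0 and 35.3 FPKM (median 8.10), above 1 FPKM in 20 of 24 and 22 of 26 blastomeres, a difference of -0.59. The carnitine carrier Slc22a5 (OCTN2) was above 1 FPKM in 6 4-cell blastomeres and 1 8-cell blastomere, at up to 9.996 and 2.27 FPKM. The carnitine carrier of the mitochondrion, Slc25a20, was never below 45.1 FPKM.

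The zinc carriers were led by Slc39a1 and Slc39a4, which held a median of 78.4% of the summed FPKM of the listed SLC39 genes at the 4-cell stage and 77.2% at the 8-cell stage. Both had smaller differences than the limit, 0.27 and -0.39. Of the 9 SLC39 genes compared, 1 was higher and 4 were lower past the limit, against 9.87% and 18.5% of all genes compared. Slc39a4 was above 1 FPKM in 22 of 24 4-cell blastomeres and in all 26 8-cell blastomeres, where its lowest value was 10.6 FPKM.

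The zinc carrier called higher was Slc39a7 (ZIP7), which releases zinc from the endoplasmic reticulum. Its values lay between 0 and 21.4 FPKM (median 1.90) at the 4-cell stage and between 0 and 72.8 FPKM (median 11.3) at the 8-cell stage, a difference of 2.24 (1.37 with the mean over blastomeres). It was above 1 FPKM in 12 of 24 and 19 of 26 blastomeres. The 4-cell median lies midway between values of 0.521 and 3.27 FPKM, so leaving out 1 blastomere moved it to one or the other and the difference ran from 1.49 to 2.98. The 4 blastomeres nearly without X-linked RNA were at 5.88 to 21.4 FPKM, and without them the 4-cell median was 0.134 FPKM and the difference 3.41. The 4 called lower were Slc39a6, Slc39a11, Slc39a3 and Slc39a9, zinc carriers of the plasma membrane or internal membranes. Slc39a6 (ZIP6) went from a median of 5.61 FPKM, range 0 to 23.5, to a median of 0, range 0 to 24.1, and from 15 of 24 (62.5%, exact 95% interval 40.6% to 81.2%) to 7 of 26 blastomeres (26.9%, 11.6% to 47.8%). Its difference was -2.72, and -1.17 with the mean over blastomeres. Slc39a11 went from 8.01 to 1.28 FPKM, a difference of -1.98, and Slc39a3 from 2.46 to 0 FPKM, a difference of -1.79. These ranges overlapped, and the highest values of Slc39a6, Slc39a11 and Slc39a3 were at the 8-cell stage. Slc39a9 (ZIP9) went from 8.57 to 3.36 FPKM and from 22 of 24 to 15 of 26 blastomeres, but in the blastomeres above 1 FPKM its median was 9.90 at the 4-cell and 12.99 FPKM at the 8-cell stage. With the mean over blastomeres the differences of Slc39a11 and Slc39a3 were -0.77 and -0.41, and without the blastomeres under 5000 genes that of Slc39a9 was -0.78.

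**Figure D5:**
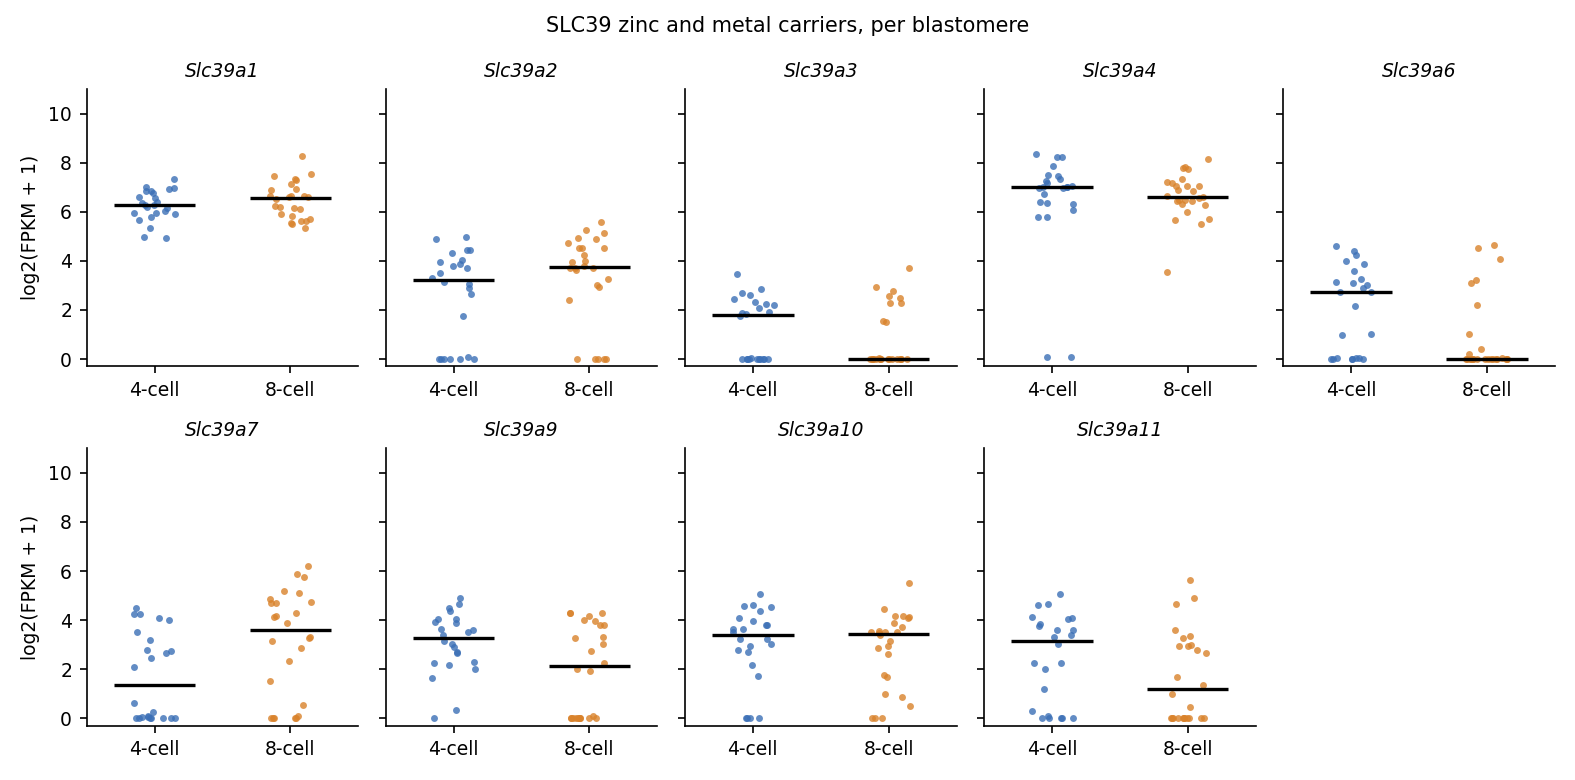
Values of the 9 SLC39 carriers compared, per blastomere, as log2(FPKM + 1), blue points for the 24 4-cell and orange points for the 26 8-cell blastomeres, spread sideways at random, with a black line at the median. Slc39a1 has no point at 0, the median of Slc39a6 and of Slc39a3 is 0 at the 8-cell stage, and the 4-cell median of Slc39a7, 1.90 FPKM, lies in a gap between points at 0.521 and 3.27 FPKM.

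The ADP/ATP carriers, which export ATP from mitochondria, differed among themselves. Their reads may be uncertain to some degree, since the genes are related in sequence and only uniquely aligned reads were counted, which was not tested. Slc25a4 (ANT1) ran from 0 to 1099 FPKM (median 356) at the 4-cell stage, where 2 blastomeres were at 0, and from 306 to 1347 FPKM (median 710) at the 8-cell stage. Its coefficient of variation was 89.6% and 38.97%. The ratio of its medians was 1.996, with a difference just under the limit. Its 4-cell values went with column order. They were 371 to 1099 FPKM in blastomeres 1 to 12, 142 to 340 in 13 to 16 and 0 to 134 in 17 to 24. The ratio and the 4-cell variation thus rest on the later columns, and whether such blocks share embryos was not tested. Slc25a5 (ANT2) ran from 0 to 656 FPKM (median 309), above 1 FPKM in 19 of 24 blastomeres, and from 155 to 1079 FPKM (median 421), above 1 FPKM in all 26. Of the 5 4-cell blastomeres not above 1 FPKM, 4 are those nearly without X-linked RNA, and without these it was above 1 FPKM in 19 of 20. The 4-cell blastomere with the fewest genes above 1 FPKM, 3009, was at 0 for Slc25a4 and at 0.0687 FPKM for the phosphate carrier Slc25a3, but at 78.0 FPKM for Slc25a20. Without the blastomeres under 5000 genes, Slc25a5 was above 1 FPKM in 17 of 21 4-cell blastomeres and Slc25a4 in 21 of 21.

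Slc25a31 (ANT4), the ADP/ATP carrier known from germ cells, had the largest difference upwards of the 50 carriers compared by the median, 3.04. With the mean over blastomeres its difference was 1.08, below the 2.01 of Slc6a8, and without the columns that have no name the median gave 2.22. Without the 4 blastomeres nearly without X-linked RNA it was 3.26, below the 3.41 of Slc39a7. It ran from 0 to 26.8 FPKM with a median of 0.183 at the 4-cell stage and from 0 to 98.8 FPKM with a median of 8.59 at the 8-cell stage. It was above 1 FPKM in 11 of 24 blastomeres (45.8%) and in 16 of 26 (61.5%), and within those its median was 10.6 and 20.4 FPKM. The values were split, with 12 4-cell and 9 8-cell blastomeres at 0. Of the summed FPKM of the 3 ADP/ATP carriers it held a median of 0.131% at the 4-cell stage, over the 23 blastomeres with any of them, and 0.866% at the 8-cell stage, while Slc25a4 held 58.8% and 60.9%.

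The upstream windows of these 3 genes and of Slc39a7 are printed because they set a gene called higher beside abundant copies of the same function, and beside the other carrier whose difference was above 2 on the log2 scale. They are RefSeq sequences of GRCm38.p6, 250 bases ending at the base before the start, at chr3:40708621-40708870 on the plus strand for Slc25a31, chr8:46211063-46211312 on the minus strand for Slc25a4, chrX:36795347-36795596 on the plus strand for Slc25a5 and chr17:34031691-34031940 on the minus strand for Slc39a7. Capitals mark matches, on either strand, to the E-box CACGTG, the GC box GGGCGG, the NRF1 half-site core TGCGCA and the C/EBP-ATF element TGATGNAA, of which the first and the third read the same on both strands. None of the marked matches overlap.
Slc25a31: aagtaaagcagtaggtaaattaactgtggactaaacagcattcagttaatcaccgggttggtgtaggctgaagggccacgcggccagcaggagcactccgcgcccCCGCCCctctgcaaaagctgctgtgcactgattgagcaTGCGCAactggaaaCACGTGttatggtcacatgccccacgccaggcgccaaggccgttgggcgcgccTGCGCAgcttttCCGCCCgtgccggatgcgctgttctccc
Slc25a4: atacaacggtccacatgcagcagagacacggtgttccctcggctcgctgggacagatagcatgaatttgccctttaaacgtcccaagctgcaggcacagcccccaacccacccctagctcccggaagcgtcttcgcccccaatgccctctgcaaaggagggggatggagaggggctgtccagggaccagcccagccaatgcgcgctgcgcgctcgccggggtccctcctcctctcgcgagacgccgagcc
Slc25a5: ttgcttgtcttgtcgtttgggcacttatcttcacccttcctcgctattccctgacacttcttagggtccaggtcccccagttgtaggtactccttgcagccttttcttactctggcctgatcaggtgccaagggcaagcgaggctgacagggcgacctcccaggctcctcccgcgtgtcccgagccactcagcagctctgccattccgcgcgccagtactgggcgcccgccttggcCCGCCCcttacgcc
Slc39a7: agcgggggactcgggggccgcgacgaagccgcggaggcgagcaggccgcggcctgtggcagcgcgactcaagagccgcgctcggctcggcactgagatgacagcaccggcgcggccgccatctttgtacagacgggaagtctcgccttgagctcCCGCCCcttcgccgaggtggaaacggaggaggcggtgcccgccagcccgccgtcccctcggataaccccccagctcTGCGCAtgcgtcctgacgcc

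The window of Slc25a31 held an E-box 93 bases before the start, GC boxes 145 and 28 bases before it and TGCGCA 107 and 40 bases before it, that of Slc39a7 a GC box 96 and TGCGCA 20 bases before it, that of Slc25a5 a GC box 14 bases before it, and that of Slc25a4 none of these letters. Windows were given for 68 of the 90 carriers in both tables, 94 windows in all. CACGTG was in 13.8% of them and in 6.63% of the 21262 windows of all protein-coding genes, GGGCGG in 59.6% and 42.6%, TGCGCA in 7.45% and 8.06%, and TGATGNAA in 3.19% and 3.18%. Of the carriers with a window, TGCGCA was upstream of 3 of the 5 called higher, Slc25a31, Slc39a7 and Slc25a21, and of none of the 11 called lower, against 9.19% of all genes with a window. GGGCGG was upstream of 4 and 10 of these (45.8% of all genes), CACGTG of 1 and 3 (7.61%), and TGATGNAA of 0 and 0 (3.64%). These counts describe letters in windows and no test was made on them.

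Of the 10 mitochondrial carriers of nucleotides and phosphate compared, 4 were lower past the limit, against 18.5% of all genes compared, and 1, Slc25a31, was higher, which is near the 9.87% of all genes. Slc25a51, the NAD carrier, went from a median of 19.9 FPKM (range 0.0289 to 49.3) to 7.62 FPKM (range 0 to 38.9), a difference of -1.28, and from 23 of 24 to 19 of 26 blastomeres above 1 FPKM. Slc25a25, which exchanges ATP-magnesium for phosphate, was above 1 FPKM in all 24 4-cell blastomeres and in 19 of 26 8-cell blastomeres, with medians of 22.1 and 9.68 FPKM. Slc25a33, a pyrimidine nucleotide carrier, went from 6.78 to 2.68 FPKM and from 22 of 24 (91.7%, exact 95% interval 73.0% to 99.0%) to 15 of 26 blastomeres (57.7%, 36.9% to 76.6%). The ranges of each overlapped. Slc25a41, a relative of Slc25a25, had medians of 33.9 and 15.7 FPKM, a difference of -1.07, which was -0.97 with the mean or with median-of-ratios scaling and -0.91 without the blastomeres under 5000 genes. Slc25a36, another pyrimidine nucleotide carrier, had medians of 36.2 and 32.5 FPKM. Slc25a25 differed by -1.12 with all columns and by -0.56 without the columns that have no name, and 404 of its 4238 exon bases overlap Naif1 on the other strand. Without the blastomeres under 5000 genes the difference of Slc25a33 was -0.48.

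The carriers of cofactors and metals had 4 of 9 genes lower past the limit and none higher, against 18.5% and 9.87% of all genes compared. Slc25a28, mitoferrin 2, which brings iron into mitochondria, ran from 0 to 52.2 FPKM (median 6.34) at the 4-cell stage and from 0 to 13.002 FPKM (median 0.0375) at the 8-cell stage, a difference of -2.81 (-1.68 with the mean over blastomeres). It was above 1 FPKM in 19 of 24 (79.2%, exact 95% interval 57.8% to 92.9%) and 8 of 26 blastomeres (30.8%, 14.3% to 51.8%), the largest difference in share among the carriers compared. Slc25a42, the coenzyme A carrier, went from a median of 3.50 to 0.00889 FPKM, and Slc25a40, a glutathione carrier, from 1.81 to 0.0869 FPKM. The ranges of both overlapped between the stages, and Slc25a42 had its highest value, 35.5 FPKM, at the 8-cell stage. Slc25a39, the other glutathione carrier, lay on the other side of 0, with medians of 28.004 and 53.2 FPKM. Its difference was 0.90, short of the limit, but it passed without the 4 4-cell blastomeres nearly without X-linked RNA. Slc25a26, which brings in S-adenosylmethionine, had 2.87 and 2.003 FPKM and Slc25a32, a folate and FAD carrier, 19.7 and 10.5 FPKM. With the mean over blastomeres the differences of Slc25a42 and Slc25a40 were -0.68 and -0.41.

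Of the 5 mitochondrial amino acid carriers compared, 1 was lower and 1 higher past the limit, against 18.5% and 9.87% of all genes compared. Slc25a15, the ornithine carrier of the urea cycle, had the lowest difference of the carriers compared by the median, -3.17. With the mean over blastomeres it was -1.16 and not the lowest, and Slc25a28 and Slc1a5 were among the carriers below it, at -1.68 and -1.62. It ran from 0 to 29.9 FPKM (median 8.10) and from 0 to 26.0 FPKM (median 0), and was above 1 FPKM in 15 of 24 and 11 of 26 blastomeres. Slc25a22, a glutamate carrier, ran from 0 to 38.7 FPKM (median 8.47) and from 0 to 38.98 FPKM (median 19.2), a difference of 1.10. The ranges of Slc25a22 were nearly equal, and without the blastomeres under 5000 genes its difference was 0.86. Slc25a12, the aspartate and glutamate carrier of the malate-aspartate shuttle, had medians of 21.6 and 30.005 FPKM and did not pass the limit. Its relative Slc25a13 was above 1 FPKM in 9 of 24 and 12 of 26 blastomeres.

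Carriers of carboxylates and less defined family members made up the rest. Slc25a21, the oxodicarboxylate carrier, was above 1 FPKM in 8 of 24 and 15 of 26 blastomeres, with medians of 0 and 2.53 FPKM and a highest value of 2.98 FPKM at the 4-cell and 28.9 FPKM at the 8-cell stage, and 189 of its 2766 exon bases overlap Pax9 on the other strand. The dicarboxylate carrier Slc25a10 and the oxoglutarate carrier Slc25a11 differed by -0.32 and -0.29. Slc25a14, an uncoupling protein relative, went from a median of 6.65 FPKM (range 0 to 27.4) to 0 (range 0 to 99.2), and from 16 of 24 to 9 of 26 blastomeres. Its highest value was thus at the 8-cell stage, and with the mean over blastomeres its difference was -0.98 in place of -2.93. It is X-linked, and without the 4 blastomeres nearly without X-linked RNA it was above 1 FPKM in 16 of 20 4-cell blastomeres, a difference of -3.34. Slc25a46, an outer membrane protein of mitochondrial shape, had medians of 2.33 and 6.56 FPKM, a difference of 1.35 that was -0.14 without the columns that have no name.

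The other 40 carriers in both tables had medians below 1 FPKM at both stages, 33 of them at 0 at both, although single blastomeres reached 73.9 FPKM. The 14 carriers listed only in the 4-cell table were above 1 FPKM in at most 4 blastomeres, Slc25a48 in 4 at up to 18.8 FPKM, and the 16 listed only in the 8-cell table in at most 7, Slc25a18, a glutamate carrier, in 7 at up to 19.1 FPKM. No row of either table was at 0 in every blastomere. The 30 carriers in neither table had no value here.

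Genes that handle the same substrates were described by the same rule, beside the 9.87% higher and 18.5% lower of all genes compared. Of 17 enzymes of glycine, serine and one-carbon metabolism compared, 2 were higher and 1 lower past the limit. Gcsh, the hydrogen carrier of the glycine cleavage system, was the most abundant of them per length, above 1 FPKM in every blastomere with medians of 1513 and 1245 FPKM, and Gldc, the decarboxylase of that system, had 63.1 and 112 FPKM. Shmt2, the mitochondrial serine hydroxymethyltransferase, went from 2.80 to 13.3 FPKM, Bhmt2, a methyltransferase to homocysteine, from 16.96 to 36.9 FPKM, and Amt, the aminomethyltransferase of glycine cleavage, from 24.04 to 10.3 FPKM. Of 7 zinc exporters and metallothionein-related genes compared, 1 was higher, Slc30a1, the plasma membrane exporter, above 1 FPKM in 5 of 24 and 15 of 26 blastomeres, and 2 were lower, Slc30a4 and Slc30a6. The metallothioneins Mt1 and Mt2, which bind zinc, were in every blastomere, at 228 and 258 FPKM or more at the 4-cell stage. Of 7 cell volume and ion regulators compared, 1 was lower, Atp1b3, a sodium pump subunit, from 252 to 104 FPKM, and the sodium-potassium-chloride carrier Slc12a2 had 45.0 and 45.4 FPKM.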

How the data were processed

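Single blastomeres were sequenced by Smart-seq2. The authors aligned the reads to mm10 with STAR 2.5.1b, per the submitters' processing notes, counted uniquely aligned reads on Refseq genes with HTSeq and deposited the gene values as FPKM, 1 table per stage. The gene length and total behind the FPKM are not given in the sources used here. The repeat tables were not used. The stage of each table comes from the study's gene and cell numbers.

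The 78 labelled samples are 36, 5, 6 and 31 blastomeres of 4-, 5-, 6- and 8-cell embryos. None of the 24 and 26 columns has a name that matches 1 label, and 5 8-cell columns have none. A limma test per embryo was planned but not run, since no column name gave an embryo. A stage was taken as 1 sample and nothing was tested. Blastomeres of an embryo are not independent.

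Entrez identifiers were matched to RefSeq of GRCm38.p6 (15200 of 15218 and 15320 of 15342). Stage differences of median log2(FPKM + 1) were computed over all 13604 genes in both tables with Python 3.11.15 and pandas 2.3.3, a pseudocount of 1 and a minimum median of 1 FPKM at a stage. Depth was estimated from the step that 1 fragment makes in low FPKM values. At least 90.6% of the low values of a blastomere lay within 0.1 of a whole fragment. Both steps were checked on simulated data. For the stage difference the simulated blastomeres were independent, with no missed transcripts and no shared embryos. The changes were planted only in genes of higher median. The check therefore gives no rate of false calls for these data. Shares carry exact (Clopper-Pearson) 95% intervals, which cover counting error only. Reads carry no molecular identifiers.

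The members and lists were chosen with earlier results of these data known. Named genes are every called carrier, the 10 highest by median, the highest of each substrate list, the glycine carriers, and called genes of the pathway lists, with other members added as examples. One carrier is counted but not reported here. Alternatives were the pseudocount, the mean, the limit, the minimum, the FPKM threshold, 2 scalings, unlisted genes at 0 and left-out columns or blastomeres, among them 4 in which X-linked genes held under 1% of the summed FPKM.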

Additional observations from a re-analysis of the deposited data

How the results depend on the processing

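The numbers of carriers past the limit, 7 higher and 16 lower, changed by less than 1.5 times under most alternatives. With the mean over blastomeres 10 were lower, all among the 16 (12.2% of all genes), and 9 higher, 6 of them among the 7 (8.33% of all genes), nearly as many higher as lower. At a limit of 1.5-fold 11 were higher (19.3% of all genes) and 18 lower (2071 of the 7131 genes compared). The number of carriers above 1 FPKM in every 4-cell blastomere, 8, was 5 at a threshold of 5 FPKM (7.18% of all genes) and 15 without the blastomeres under 5000 genes (17.9% of all genes). Leave-one-out over the 50 blastomeres gave 6 to 8 higher and 12 to 17 lower carriers. Of the 23 calls, 23 held with a pseudocount of 0.1, 16 with the mean, 21 with median-of-ratios scaling, 22 with equal sums, 20 without the 5 columns that have no name 16 without the blastomeres under 5000 genes and 19 without the 4 4-cell blastomeres nearly without X-linked RNA, an alternative chosen after seeing the data. Without the unnamed columns the difference of Slc25a46 turned to -0.14. The calls that did not hold with each blastomere left out, for several blastomeres each, were those of Slc1a5 (-1.09 to -0.92), Slc25a25 (-1.26 to -0.98), Slc25a33 (-1.52 to -0.74), Slc25a40 (-1.73 to -0.91), Slc25a41 (-1.16 to -0.98), Slc25a46 (0.58 to 2.12) and Slc38a4 (0.37 to 2.49). The call of Slc39a7 held, from 1.49 to 2.98. The cause of these changes was not tested. The median difference of all genes, -0.11, was -0.05 under either scaling. Setting unlisted genes to 0, also chosen after seeing the data, changed no call. No paired analysis was possible because no column names an embryo or a replicate, and none was matched to an embryo by order or depth. With 24 and 26 blastomeres, the exact interval on a share is wide (36.6% to 77.9% for Slc6a9 at the 4-cell stage), and a carrier at 0 in a blastomere may have been missed at this depth.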

Other observations

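Genes that report or sense amino acid supply are given as values with no test, beside the 9.87% higher and 18.5% lower of all genes compared. Of the 6 amino acid response genes compared, 3 were lower past the 2-fold limit at the 8-cell stage and none higher. Ddit3, a transcription factor of the stress response, went from a median of 10.5 to 0 FPKM and from 20 of 24 to 6 of 26 blastomeres above 1 FPKM. Trib3, a pseudokinase of the same response, went from 5.14 to 0 FPKM, and Nupr1, a stress-induced chromatin protein, from 62.0 to 23.5 FPKM. The other 3 did not pass the limit and differed in direction. Atf4, the factor that drives the response, had medians of 55.9 and 71.5 FPKM, a difference of 0.35. Asns had 6.05 and 7.86 FPKM, a difference of 0.996, just short of the limit, and Sesn2 had 51.9 and 36.5 FPKM, a difference of -0.50.

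Of 12 genes of amino acid sensing by mTORC1 compared, 2 were higher and 1 lower. The Rag GTPases, which work as pairs of RagA or RagB with RagC or RagD on the lysosome, differed in direction. Rragc ran from 0 to 62.3 FPKM (median 9.80) at the 4-cell stage and from 0 to 33.7 FPKM (median 0.0248) at the 8-cell stage, above 1 FPKM in 20 of 24 and 8 of 26 blastomeres. Rragd ran from 0 to 18.8 FPKM (median 0.00658) and from 0 to 35.6 FPKM (median 9.98), above 1 FPKM in 10 of 24 and 21 of 26. Rraga went from 3.91 to 9.08 FPKM. Rragc and Rragd thus lay on opposite sides, by -3.40 and 3.45 on the log2(FPKM + 1) scale, with ranges that overlapped in both cases.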
